A study of Homo sapiens with 9 samples.

Results

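MYC and 33 genes of ribosome biogenesis were followed in KGN cells, a human granulosa cell tumour line, after insulin. The 34 genes were taken by symbol from a list of MYC, its partner MAX, nucleolar proteins and RNA polymerase I genes, a rule that uses no measured value. The list itself was chosen with earlier results of these data known. All 34 were found among the 15983 genes of the count table, and all 34 were among the 12665 genes with enough counts to be tested. RNA sequencing was done on 9 libraries in 3 groups of 3. Cells, of a genotype labelled wild type, were fasted for 12 h (the labels give no medium). They were then kept for 72 h with the solvent (control), with insulin at 0.5 µg/ml (lower dose) or with insulin at 1 µg/ml (higher dose). The fast and the time in culture were thus shared by all groups. KGN is a single tumour line, the labels do not say whether replicates came from separate cultures, so the p-values measure a spread that may be technical.

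Ribosomes are assembled in the nucleolus, where RNA polymerase I transcribes the ribosomal RNA precursor and guide particles, helicases and assembly factors modify, cut and fold it into the small and large subunits. MYC, a transcription factor that binds DNA as a dimer with MAX, is known for activating many genes of this pathway, and insulin is known to stimulate ribosome production through PI3K and mTORC1 signalling. These statements are background and were not measured here.

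Library totals ran from 18965722 to 20446405 counts, so that a gene with 0 counts in the shallowest library could still be present at up to 0.158 CPM (3 counts; CPM are counts scaled to the library total), for counting error only. Pairs of libraries of the same group differed beyond counting noise, with chi-square over its degrees of freedom from 2.20 to 8.46. The 2 highest values (8.01 and 8.46) were those of lower dose replicate 1, so that library stood apart from the other 2 of its group, which gave 2.20. Of 15 listed granulosa cell markers 13 passed the count filter, among them FOXL2 at 26.2 ± 2.02 CPM and FSHR at 18.1 ± 2.43 CPM (SD, n = 9), whereas AMHR2 and ESR2 held 34 and 31 counts over all libraries. Passing the filter did not require a high level. In deposited FPKM (fragments scaled to transcript length and library total) the median of the 13 was 2.81 and the lowest 0.108. Over all tested genes the median was 6.83 FPKM. Of 7 listed epithelial markers 6 passed the filter, with a median of 5.498 FPKM. Of 7 listed fibroblast and smooth muscle markers 6 passed, with a median of 22.79 FPKM. Both medians were above that of the granulosa cell markers. The highest of each list were KRT18, an epithelial keratin, at 1756 ± 82.8 CPM and ACTA2, the smooth muscle actin, at 405 ± 43.4 CPM. The epithelial marker EPCAM (7 counts) and the smooth muscle marker MYH11 (12 counts) did not pass. HBB, a haemoglobin chain, held 1 count in all. Of 8 listed blood and endothelial markers 2 passed the filter, PTPRC at 1.79 ± 0.650 CPM and VWF at 1.27 ± 0.321 CPM.

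MYC/MAX dimers bind the E-box CACGTG, which reads the same on both strands. The RefSeq promoter table for GRCh38.p14 matched 27 of the 34 genes, and the 250 bases before the annotated start held this motif for 5 of them (18.5%). Among the 10288 tested genes with an entry the share was 11.3%, and among all 27305 genes of the table it was 7.73%. Counted over promoters, since a gene can have several, the motif stood in 5 of 35 promoters of the 27 genes (14.3%) and in 8.16% of the promoters of tested genes. These shares were not tested, and a count of 5 genes is too small to set the 27 apart from tested genes. The sequences around the motif nearest to the start are given below for these 5 genes because this is the motif that the dimer is known to bind; capitals mark the motif, and each sequence is read 5′ to 3′ on the strand of its gene.

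DDX21, chr10:68956604-68956633, plus strand, motif 26 bases before the start: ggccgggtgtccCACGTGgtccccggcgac
NAT10, chr11:34105602-34105628, plus strand, motif 10 bases before the start: aatgcgcttgcgCACGTGctgtctacc
NOP10, chr15:34343137-34343159, minus strand, motif 6 bases before the start: gaaattgacgaaCACGTGacgcg
UTP20, chr12:101280083-101280104, plus strand, motif 5 bases before the start: cttttttccgtcCACGTGaccc
UTP4, chr16:69132621-69132648, plus strand, motif 11 bases before the start: agagcgcgcgcgCACGTGgggccggggc

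Distances are counted from the RefSeq start of the promoter shown. GENCODE release 29 gives an earlier start for DDX21, NAT10, NOP10 and UTP4, so that these 4 sequences lie within the bounds of the gene in that annotation, and that of UTP20 lies before it. The flanks of the motif differed among the 5 genes. NOP10 carried another copy 165 bases before the start, and DDX21 had a further annotated promoter without the motif. A match describes the letters of the window and is not evidence of binding, which was not measured here.

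Levels were compared between genes on the deposited FPKM values (fragments scaled to transcript length and library total). NPM1, the abundant nucleolar chaperone, was the highest of the 34 at 224.1 ± 10.9 FPKM (SD, n = 9), followed by nucleolin (NCL) at 139 ± 5.96 FPKM and NOP10, a small core protein of box H/ACA particles, at 135 ± 5.99 FPKM. NHP2, another H/ACA core protein, stood at 63.4 ± 3.66 FPKM and fibrillarin (FBL), the methyltransferase of box C/D particles, at 62.3 ± 3.11 FPKM. At the other end stood POLR1B, a catalytic subunit of RNA polymerase I, at 4.14 ± 0.330 FPKM, the processome scaffold UTP20 at 3.71 ± 0.207 FPKM and WDR12, a large subunit assembly factor, at 3.34 ± 0.181 FPKM.

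The 34 genes had a median of 14.9 FPKM, against 6.83 FPKM over all tested genes. MYC came eighth of the 34 at 34.3 ± 1.99 FPKM, and 13.3% of tested genes were higher. MAX came 13th at 19.6 ± 0.674 FPKM. Of the 33 neighbouring pairs in the order of levels, 6 had library ranges that did not overlap: NPM1 over NCL, NOP10 over NHP2, FBL over NOP56, GNL3 over MYC, DKC1 over NOP58 and POLR1A over POLR1B. The other 27 neighbours were not separated by their spread over libraries. The order rests on gene lengths implied by the deposited values, which were between 0.342 (NOP16) and 1.51 (MYC) times the exon length in GENCODE release 29. With the GENCODE lengths the ranks change: MYC comes 4th, NOP56 goes from 6th to 10th, and POLR1B from 32nd to 28th, while NPM1 stays first and WDR12 last. Of the separated pairs, GNL3 over MYC then reverses, at 28.4 against 51.7 CPM per kb. POLR1A and POLR1B then lie close, at 5.43 and 5.31 CPM per kb. The ranges over libraries do not include an error in length.

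**Figure D1:**
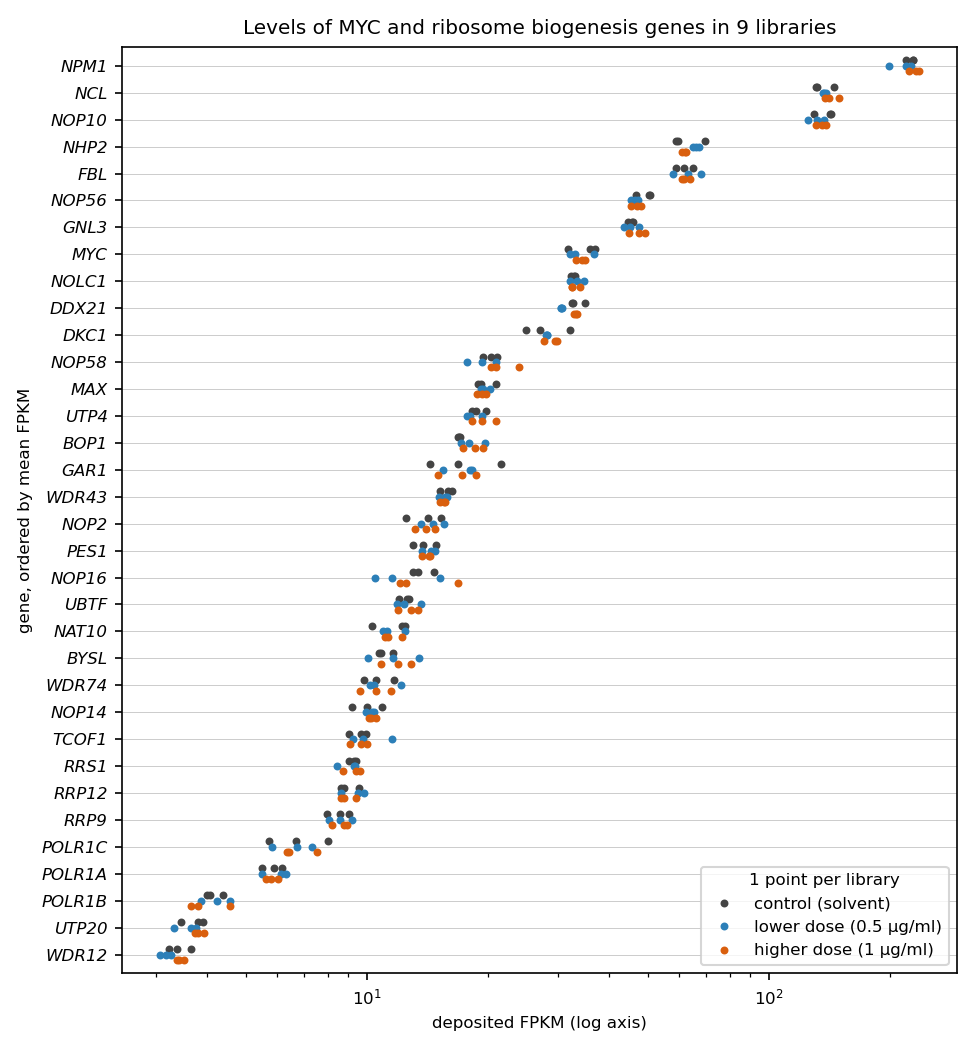
Deposited FPKM on a log axis for each of the 34 genes, ordered by mean, with 1 point per library coloured by group. The genes span from 3.34 (WDR12) to 224.1 (NPM1) on average, and each dose overlaps control in every row except BOP1 (both doses) and DDX21 (lower dose).

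Neither insulin dose gave a called change in any of the 34 genes. At an adjusted p under 0.05 (edgeR quasi-likelihood test, Benjamini-Hochberg over 12665 genes) 0 of 34 were called with the lower dose, the higher dose or between doses. The share called among all tested genes was also 0% in each of the 3 comparisons and in the test over the 3 groups. The smallest adjusted p among the 34 was 0.780 (DDX21) for the lower dose, 1.00 (BOP1) for the higher dose and 0.846 (DDX21) between doses, against 0.525, 1.00 and 0.846 over all tested genes. DESeq2 called 0 of the 34 as well.

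The estimates were narrow. The 95% interval of the fold change lay within 1.5-fold in either direction for 34 of 34 genes in each of the 3 comparisons, whereas this held for 87.7%, 88.3% and 87.8% of all tested genes (lower dose, higher dose, between doses). It lay within 1.2-fold for 30 genes with the lower dose, 31 with the higher dose and 31 between doses, against 58.3%, 62.9% and 59.7% of all tested genes. The 34 genes were also better counted, with a median of 47.8 CPM against 28.5 CPM over all tested genes. Shares for genes of like level were not computed, so the narrower intervals cannot be read as a trait of the 34. The genes with wider intervals were NOP16 and GAR1 each time, BYSL with either dose, POLR1C with the lower dose and NOP58 between doses. The lowest and highest bounds of any of the 34 intervals were 0.749 and 1.23 for the lower dose, 0.811 and 1.24 for the higher dose and 0.819 and 1.34 between doses. CPM are relative to the scaled library size, so a change in total RNA per cell would not be seen in them. In bulk RNA fewer cells and less RNA per cell cannot be told apart.

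Fold changes of the 34 genes lay on both sides of 0. For the lower dose against control 20 were above 0 and 14 below, with a median log2 fold change of 0.01 and a range from -0.13 (NOP16) to 0.12 (BOP1); over all tested genes the median was 0.0043. The higher dose against control gave 18 above and 16 below 0, a median of 0.0047 and a range from -0.08 (NOP56) to 0.12 (BOP1), beside a median of -0.0002 over all tested genes. Between doses 15 were above and 19 below 0, with a median of -0.0039 and a range from -0.11 (NHP2) to 0.16 (NOP58), beside -0.0011 over all tested genes. The comparisons with control share the 3 control libraries. Without control replicate 1 the median of the 34 genes was 0.04 for either dose, and without control replicate 3 it was -0.0108 for the lower and -0.0203 for the higher dose.

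At an unadjusted p under 0.05, 1 of 34 genes differed for the lower dose (DDX21, below control) against 6.13% of all tested genes, 0 of 34 for the higher dose against 2.36%, and 2 of 34 between doses (DDX21 and NOP58, both higher at the higher dose) against 5.68%. In the test over the 3 groups DDX21 alone had an unadjusted p under 0.05 (adjusted p = 0.978), against 4.48% of all tested genes. Leaving out single libraries gave between 1 and 3 genes for the lower dose (3 without control replicate 1), between 0 and 2 for the higher dose (2 without control replicate 1) and 1 or 2 between doses. The libraries of the 2 groups did not overlap for 2 of 34 genes with the lower dose (BOP1 above, DDX21 below; 10.7% of all tested genes), for 1 with the higher dose (BOP1 above; 7.73%) and for 3 between doses (DDX21 and WDR12 above, NHP2 below; 12.2%). Counts of 1 to 3 genes without overlap are too small to set the 34 apart from all tested genes, and the comparisons share libraries. The 2 of 34 at an unadjusted p under 0.05 between doses are near the share of all tested genes.

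**Figure D2:**
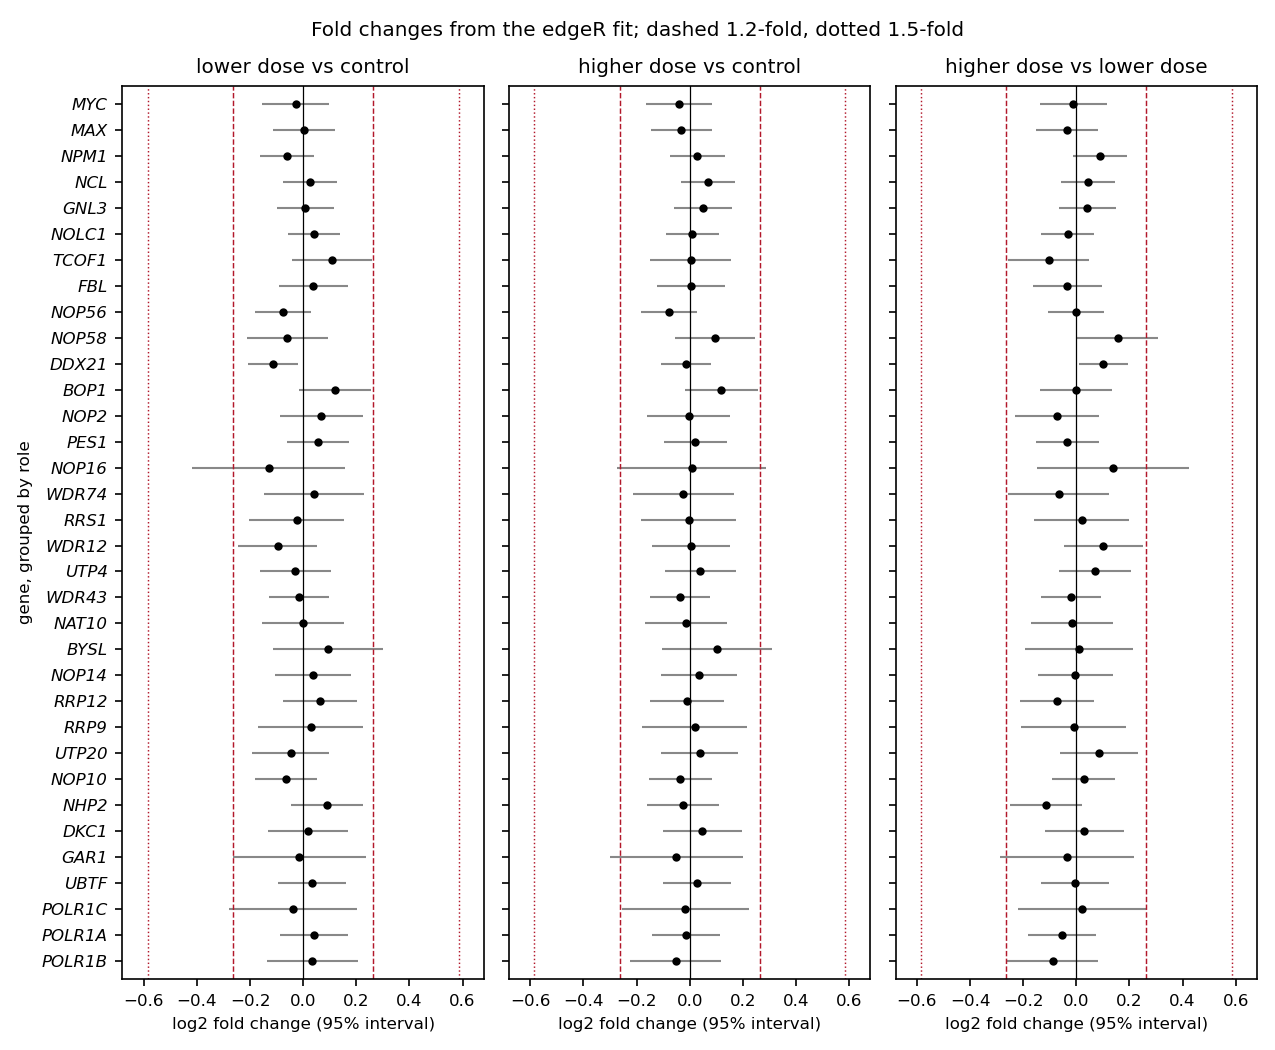
Log2 fold change (point) with its 95% interval (line) for the 34 genes, grouped by role, in the 3 comparisons; dashed lines mark 1.2-fold and dotted lines 1.5-fold. Every interval ends inside the dotted lines, and NOP16 has the widest, reaching down to 0.749 times the control level at the lower dose.

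MYC, the transcription factor of the group, was measured at 144, 162 and 167 CPM in control replicates 1 to 3. The lower dose libraries held 168, 145 and 150.3 CPM, and the higher dose libraries 149, 157 and 154 CPM. Control replicate 1 was the lowest of the 9 and lower dose replicate 1 the highest, and the 3 groups overlapped. Group means were 157.6 ± 12.2, 154.6 ± 12.0 and 153.4 ± 4.21 CPM (SD, n = 3). The log2 fold change was -0.03 ± 0.06 (SE) for the lower dose (adjusted p = 0.946), with an interval from 0.899 to 1.07-fold, and -0.04 ± 0.06 for the higher dose (adjusted p = 1.00), with an interval from 0.892 to 1.06-fold.

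MAX, which dimerises with MYC and with the repressors of the MXD family, was at 61.6, 66.6 and 60.03 CPM in control, at 62.0, 62.0 and 64.7 CPM with the lower dose and at 62.9, 59.7 and 61.5 CPM with the higher dose. All 9 values lay close together and the groups overlapped. Its log2 fold change was 0.0038 ± 0.06 (SE) for the lower and -0.03 ± 0.06 for the higher dose. The ratio of MYC to MAX in FPKM, chosen for description after the values were seen, ran from 1.64 to 1.96 over the 9 libraries. It depends on the gene lengths used: with the GENCODE lengths MYC stood at 51.7 and MAX at 14.1 CPM per kb, a larger ratio.

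The nucleolar proteins NCL, NPM1, GNL3, NOLC1 and TCOF1 had log2 fold changes above 0 for 4 of 5 genes with the lower dose and for 5 of 5 with the higher dose, with medians of 0.03 in both, and 0 of 5 passed the test. NCL, which binds ribosomal RNA precursors, was at 572, 516.0 and 514 CPM in control, at 541, 542 and 548 CPM with the lower dose and at 585, 542 and 554 CPM with the higher dose. Control replicates 2 and 3 were the lowest of the 9, but control replicate 1 lay among the treated libraries. Its log2 fold change for the higher dose was 0.07 ± 0.05 (SE; adjusted p = 1.00).

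NPM1 was at 497, 476 and 495 CPM in control, at 436, 479 and 494 CPM with the lower dose and at 483, 502 and 512 CPM with the higher dose. Lower dose replicate 1 was the lowest library and the groups overlapped. Between doses its log2 fold change was 0.09 ± 0.05 (SE; adjusted p = 0.846). A processed copy, NPM1P27, shares 47.4% of the NPM1 transcript at 97% identity or more, so the assignment of its reads is uncertain.

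TCOF1 encodes treacle, which works with RNA polymerase I at the ribosomal DNA. It was at 60.3, 58.4 and 54.5 CPM in control, at 70.8, 59.6 and 56.4 CPM with the lower dose and at 60.4, 58.5 and 54.8 CPM with the higher dose. Lower dose replicate 1 stood above all other libraries, the groups overlapped, and without that library the log2 fold change for the lower dose was 0.0061, against 0.11 ± 0.07 (SE; adjusted p = 0.806) with it. The other 2 genes of this set, the nucleolar GTPase GNL3 and the snoRNP chaperone NOLC1, varied by coefficients of variation of 3.65% and 2.85% over the 9 libraries.

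Box C/D particles guide 2′-O-methylation of ribosomal RNA and are built from the methyltransferase FBL and the scaffolds NOP56 and NOP58. FBL was at 72.4, 68.2 and 65.3 CPM in control, at 76.3, 64.3 and 70.6 CPM with the lower dose and at 67.5, 70.65 and 68.3 CPM with the higher dose. Lower dose replicates 1 and 2 were the highest and the lowest of all. The log2 fold change was 0.04 ± 0.06 (SE) for the lower and 0.0045 ± 0.06 for the higher dose.

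NOP56 was at 96.8, 96.9 and 89.3 CPM in control, at 89.8, 91.0 and 87.4 CPM with the lower dose and at 91.6, 89.9 and 86.9 CPM with the higher dose. Control replicates 1 and 2 were above all treated libraries, and control replicate 3 lay among them. The log2 fold change was -0.08 ± 0.05 (SE) with either dose (adjusted p = 0.805 for the lower and 1.00 for the higher dose).

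NOP58 was at 42.2, 38.8 and 40.6 CPM in control, at 35.8, 42.0 and 38.9 CPM with the lower dose and at 47.5, 40.7 and 41.8 CPM with the higher dose. Lower dose replicate 1 was the lowest and higher dose replicate 1 the highest, while the other libraries of the 2 doses overlapped. Between doses the log2 fold change was 0.16 ± 0.07 (SE; adjusted p = 0.846), with an interval from 1.00 to 1.24-fold.

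Large subunit assembly factors gave 4 log2 fold changes above 0 and 4 below in each comparison, with medians of 0.0087 for the lower dose, 0.0007 for the higher dose and 0.01 between doses. BOP1, PES1 and WDR12 form the PeBoW complex, which is needed to process the large subunit RNA precursor. BOP1 was at 41.3, 41.3 and 40.8 CPM in control, at 48.2, 41.8 and 44.0 CPM with the lower dose and at 44.99, 47.1 and 42.0 CPM with the higher dose. The 3 control values lay within 1 CPM of each other and below all 6 treated libraries, 2 of which were above them by less than 1 CPM.

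The log2 fold change of BOP1 was 0.12 ± 0.07 (SE) for either dose, or 1.09-fold with an interval from 0.988 to 1.19-fold. The adjusted p was 0.804 for the lower and 1.00 for the higher dose. Both comparisons rest on the same 3 control libraries. Without lower dose replicate 1 the value for the lower dose was 0.06.

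PES1 lay between 66.8 and 76.5 CPM over all libraries. WDR12 was at 29.6, 27.1 and 25.9 CPM in control, at 25.8, 24.8 and 26.5 CPM with the lower dose and at 27.4, 27.1 and 28.3 CPM with the higher dose. Its lower dose libraries were all below its higher dose libraries. Control overlapped both groups, with lower dose replicates 1 and 2 below its lowest library. The log2 fold change was -0.10 ± 0.07 (SE; adjusted p = 0.821) for the lower dose and 0.10 ± 0.07 (adjusted p = 0.870) between doses.

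DDX21, an RNA helicase of the nucleolus whose gene lies on chromosome 10 (68956128 to 68985073, plus strand, hg38), and whose E-box sequence is printed above, had the smallest p of the 34. It was at 157, 155 and 167 CPM in control, at 149, 147 and 147 CPM with the lower dose and at 159, 157 and 159 CPM with the higher dose. The 3 lower dose libraries lay close together and below the other 6, and the higher dose libraries lay within the control range.

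The mean of DDX21 was 159.8 ± 6.24 CPM in control, 147.6 ± 1.09 CPM with the lower dose and 158.4 ± 1.11 CPM with the higher dose (SD, n = 3). The log2 fold change for the lower dose was -0.11 ± 0.05 (SE), or 0.923-fold with an interval from 0.865 to 0.986-fold (adjusted p = 0.780). Between doses it was 0.10 ± 0.05 (adjusted p = 0.846), and for the higher dose against control -0.01 ± 0.04 (adjusted p = 1.00). The first 2 of these comparisons share the lower dose libraries. Leaving out single libraries moved the value for the lower dose between -0.13 (without control replicate 2) and -0.08 (without control replicate 3).

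NOP16 had the widest spread of the 34, with a coefficient of variation of 14.9%. It was at 14.4, 12.7 and 13.1 CPM in control, at 15.1, 10.3 and 11.4 CPM with the lower dose and at 16.4, 11.8 and 12.2 CPM with the higher dose. Replicate 1 was the highest library in each group, and the groups overlapped. Its log2 fold change for the lower dose was -0.13 ± 0.14 (SE; adjusted p = 0.863), and -0.31 without lower dose replicate 1. The genes ARL10 and HIGD2A, on the opposite strand, share 34.6% of its transcript between them, and the counts carry no stated strand setting.

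The other large subunit factors were NOP2, a methyltransferase of the large subunit RNA, RRS1, which works in loading the 5S particle, and WDR74. NOP2 ranged from 36.7 to 46.2 CPM, RRS1 from 14.5 to 16.5 CPM and WDR74 from 21.4 to 27.5 CPM. A coding gene model on the same strand, AC006064.6, shares 83.6% of the NOP2 transcript, and an antisense gene and copies of the U2 small nuclear RNA share 31.1% of the WDR74 transcript, so counts of both are uncertain.

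The small subunit processome cuts and folds the RNA precursor of the small subunit. Of its 8 genes 5 had log2 fold changes above 0 with each dose, the medians were 0.01 and 0.03, and 0 of 8 passed the test. UTP20 was at 35.5, 31.1 and 34.2 CPM in control, at 33.3, 34.1 and 30.2 CPM with the lower dose and at 35.4, 34.3 and 33.7 CPM with the higher dose. The groups overlapped, and the log2 fold change was -0.05 ± 0.07 (SE) for the lower and 0.04 ± 0.07 for the higher dose.

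WDR43 was the steadiest of the 34 genes, with a coefficient of variation of 2.45%. It was at 53.4, 57.0 and 55.7 CPM in control, at 55.3, 55.9 and 53.3 CPM with the lower dose and at 53.1, 54.8 and 54.3 CPM with the higher dose. The groups overlapped. Its log2 fold change was -0.02 ± 0.05 (SE) for the lower and -0.04 ± 0.05 for the higher dose (adjusted p = 1.00).

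Among the rest, BYSL, an assembly factor of the pre-40S particle, had log2 fold changes of 0.09 ± 0.10 (SE) for the lower and 0.10 ± 0.10 for the higher dose, within a range of libraries from 17.4 to 23.4 CPM. The RNA acetyltransferase NAT10 lay between 40.85 and 49.8 CPM, the processome proteins NOP14 and UTP4 between 32.5 and 39.0 CPM and between 42.0 and 48.9 CPM, and RRP12, a factor of pre-40S maturation and export, between 40.7 and 47.0 CPM. RRP9, a protein of the U3 particle, lay between 12.2 and 14.2 CPM.

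Box H/ACA particles guide pseudouridylation and have 4 core proteins, the pseudouridine synthase DKC1 and its partners GAR1, NHP2 and NOP10. The median log2 fold change of the 4 was 0.0024 for the lower dose (2 above 0) and -0.03 for the higher dose (1 above 0). NHP2 was at 54.3, 45.7 and 46.3 CPM in control, at 52.7, 50.9 and 51.9 CPM with the lower dose and at 48.0, 48.4 and 47.3 CPM with the higher dose. Its lower dose libraries were all above its higher dose libraries, and control replicate 1 was the highest of the 9.

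Between doses the log2 fold change of NHP2 was -0.11 ± 0.06 (SE; adjusted p = 0.846), and for the lower dose it was 0.09 ± 0.06 (adjusted p = 0.820). Without control replicate 1 the latter was 0.17 (adjusted p = 0.374). The opposite-strand gene RMND5B and the pseudogene NHP2P1 share 82.7% of the NHP2 transcript, so its counts are uncertain too.

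NOP10 was at 65.95, 72.5 and 71.8 CPM in control, at 70.4, 63.7 and 67.2 CPM with the lower dose and at 66.3, 68.7 and 70.2 CPM with the higher dose, and the groups overlapped. DKC1 and GAR1 both had control replicate 1 as the highest library, at 78.8 and 22.8 CPM, while control replicates 2 and 3 lay at 66.0 and 60.9 CPM for DKC1 and at 15.1 and 17.6 CPM for GAR1. Leaving out single libraries moved the log2 fold change of GAR1 for the lower dose between -0.14 (without control replicate 2) and 0.16 (without control replicate 1). The FPKM of NOP10 was between 4.05 and 5.71 times that of DKC1, and that of GAR1 between 0.535 and 0.677 times, in ratios chosen after the values were seen. These ratios too depend on the lengths used: with the GENCODE lengths NOP10, DKC1 and GAR1 stood at 123.7, 16.55 and 8.895 CPM per kb.

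RNA polymerase I was represented by its largest subunits POLR1A and POLR1B, by POLR1C, a subunit shared with RNA polymerase III, and by UBTF, the factor that binds the ribosomal DNA. Of these 4 genes 3 had log2 fold changes above 0 with the lower dose and 1 with the higher dose, with medians of 0.03 and -0.02. POLR1B was at 35.7, 32.5 and 33.0 CPM in control, at 31.8, 37.2 and 34.7 CPM with the lower dose and at 37.0, 29.7 and 30.9 CPM with the higher dose. No group of POLR1B libraries was separate from another. POLR1A lay between 68.5 and 79.4 CPM, UBTF between 61.9 and 71.3 CPM and POLR1C between 14.1 and 19.6 CPM over the 9 libraries.

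**Figure D3:**
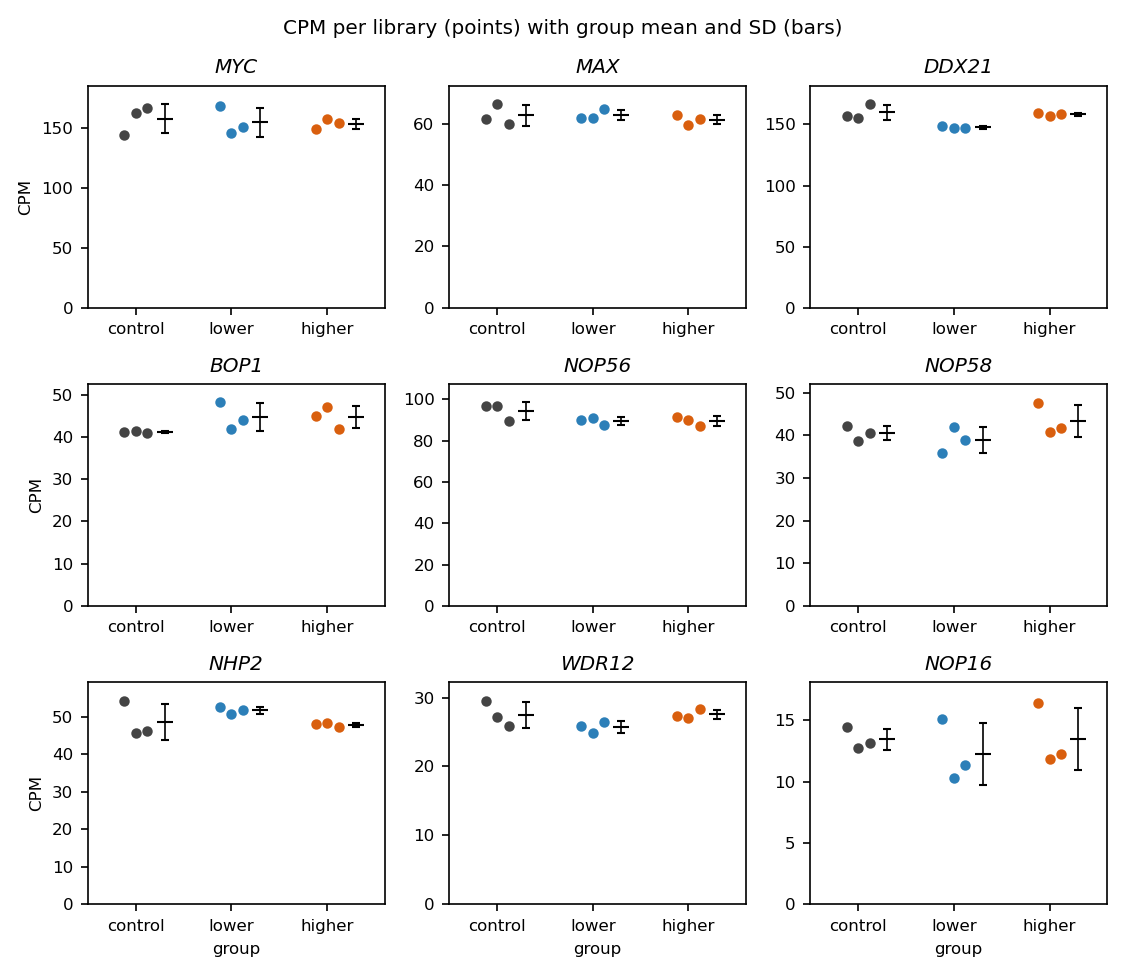
CPM of 9 of the genes in each library (points, in the order of replicates 1 to 3) with the group mean and SD (bars); each axis starts at 0. DDX21 at the lower dose (147.6 ± 1.09 CPM) lies below both other groups, BOP1 in control (41.1 ± 0.261 CPM) below both doses, and the remaining 7 overlap between each dose and control.

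The 34 genes also differed between libraries of the same group. The median deviation of the 34 from each gene's own mean (log2 CPM) was 0.04 in control replicate 1, -0.0144 in control replicate 2 and -0.05 in control replicate 3. It ran from -0.02 to 0.01 in the lower dose libraries and from -0.0151 to 0.02 in the higher dose libraries. The spread between control replicates was thus wider than any median fold change of the 34, while the same median over all tested genes stayed between -0.0003 and 0.0020 in every library.

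Lower dose replicate 1 held the highest value of 10 of the 34 genes and the lowest of 4, and control replicate 3 held the lowest value of 9. Over all tested genes lower dose replicate 1 was the highest library for 19.8% and the lowest for 17.8%, and control replicate 3 was the lowest for 13.5%. By role, the H/ACA core genes had a median deviation of 0.16 in control replicate 1, and the large subunit factors had 0.09 in lower dose replicate 1. Together the 34 genes took 0.280% ± 0.006 of all counts in control, 0.277% ± 0.002 with the lower dose and 0.284% ± 0.003 with the higher dose (SD, n = 3). The median coefficient of variation over the 9 libraries was 5.35% for the 34 genes, against 6.75% for all tested genes and 5.55% for the 8632 tested genes within the same range of CPM.

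**Figure D4:**
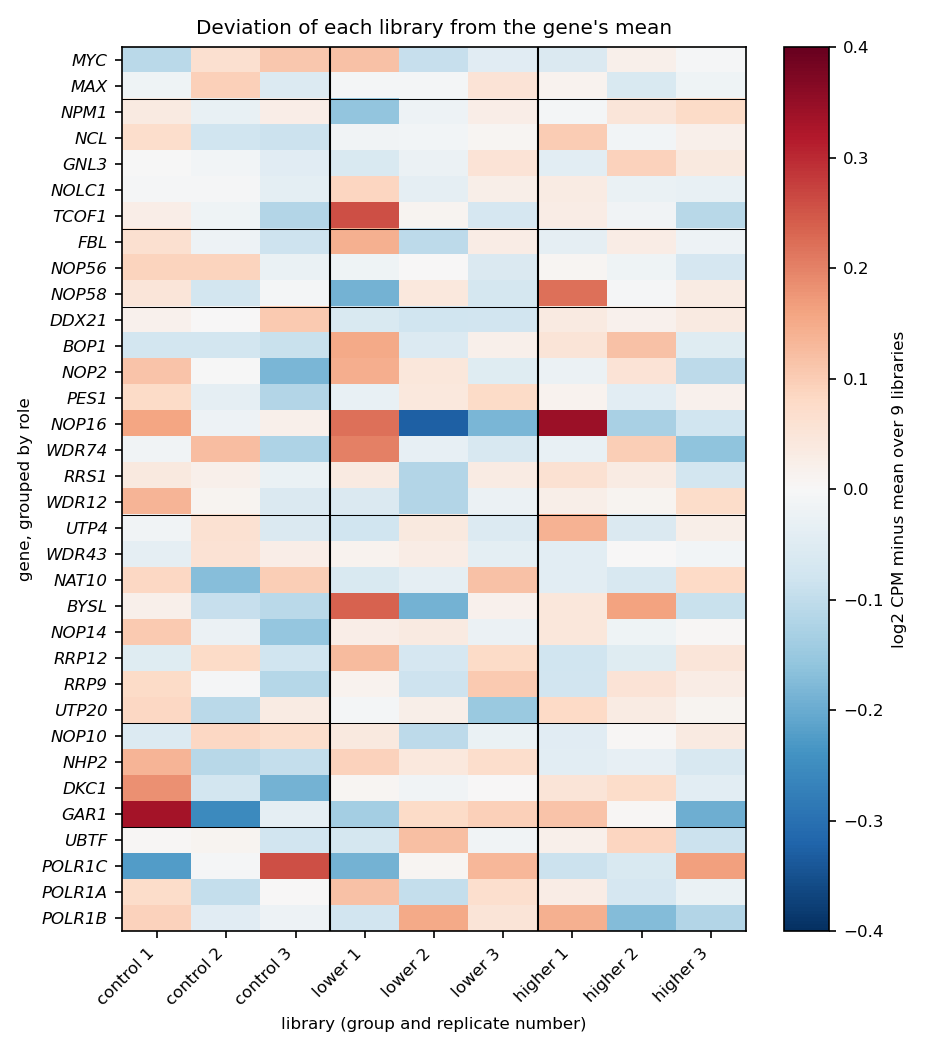
Deviation of log2 CPM from each gene's mean over 9 libraries, for the 34 genes in rows grouped by role and the libraries in columns; red is above and blue below the mean. Control replicate 1 is mostly red (median 0.04) and control replicate 3 mostly blue (median -0.05), so columns of 1 group differ from each other.

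Several of these genes carry, within their bounds in GENCODE release 29, genes of small nucleolar RNAs, the guide RNAs of box C/D and H/ACA particles. This was the case for 7 of 34 (20.6%), against 218 of 12399 tested protein-coding genes (1.76%). GNL3 holds 6 such genes, NOP56 holds 5, NOP58 holds 4, NCL and WDR43 hold 3 each, DKC1 holds 2 and POLR1C holds 1. Those of NOP56 are SNORA51, SNORD56, SNORD57, SNORD86 and SNORD110, and those of NCL are SNORA75, SNORD20 and SNORD82. Levels of the small RNAs themselves were not analysed here.

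Other genes of the pathway were counted in the same way. In 3 further lists of ribosome biogenesis genes (RNA polymerase I, small subunit and large subunit assembly) 108 of 113 listed genes were tested, and 0 were called in any comparison. Above 0 were 62 genes for the lower dose, 61 for the higher dose and 56 between doses, with median log2 fold changes of 0.0091, 0.0069 and 0.0036. Of all 12665 tested genes 6587, 6317 and 6271 were above 0, with medians of 0.0043, -0.0002 and -0.0011. At an unadjusted p under 0.05 stood 2 genes above and 2 below 0 for the lower dose, 1 above for the higher dose, and 2 above and 1 below between doses. Over all tested genes the shares at this threshold were 6.13%, 2.36% and 5.68%. For 108 of 108 the interval lay within 1.5-fold in each comparison, against 87.7%, 88.3% and 87.8% of all tested genes. Shares for genes of like level were not computed here either.

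DDX49, an RNA helicase of the small subunit list, had the smallest p of the 3 lists. It was at 18.5 ± 0.401 CPM in control, 23.2 ± 1.54 CPM with the lower dose and 21.4 ± 2.40 CPM with the higher dose (SD, n = 3), a log2 fold change of 0.33 ± 0.09 (SE; adjusted p = 0.765) for the lower and 0.21 ± 0.09 (adjusted p = 1.00) for the higher dose. KRR1, a protein of the small subunit processome, was at 36.3 ± 1.24, 31.2 ± 2.90 and 36.1 ± 1.83 CPM in the same order, a log2 fold change of -0.22 ± 0.07 (adjusted p = 0.765) for the lower dose and of 0.21 ± 0.07 (adjusted p = 0.846) between doses. POLR2F, a subunit shared by the RNA polymerases, had 0.19 ± 0.07 (adjusted p = 0.765) for the lower dose, and POLR2L, another shared subunit, 0.09 ± 0.05 (adjusted p = 1.00) for the higher dose. In the large subunit list GNL3L, a GTPase related to GNL3, had 0.20 ± 0.10 and PAK1IP1 0.15 ± 0.08 for the higher dose, both at an adjusted p of 1.00.

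Of the MYC network partners, the factors that bind with or against MYC and MAX, 10 of 12 listed were tested and 0 were called. The median log2 fold change was 0.07 for the lower dose (9 of 10 above 0) and 0.03 for the higher dose (6 of 10 above 0). Of all 12665 tested genes 6587 and 6317 were above 0, with medians of 0.0043 and -0.0002. Both comparisons share the 3 control libraries, and whether the list moved as a set was not tested. The interval lay within 1.2-fold for 5 of 10 with the lower dose, and MYCL was counted at only 0.722 CPM. Between doses it was -0.06, with 3 above and 7 below 0. The smallest p of the list was between doses, for the MAX-binding repressor MXD1, named after its values were seen, with a log2 fold change of -0.28 ± 0.10 (SE; adjusted p = 0.846) from 15.75 ± 1.84 CPM at the lower to 13.0 ± 0.627 CPM at the higher dose (SD, n = 3). MXD4, a repressor that dimerises with MAX, had 0.13 ± 0.06 (SE) for the higher dose (adjusted p = 1.00), from 77.2 ± 1.46 CPM in control to 84.5 ± 8.59 CPM (SD, n = 3). MNT, another MAX-binding repressor, had 0.13 ± 0.07 for the lower dose (adjusted p = 0.805).

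Genes known as MYC targets outside ribosome biogenesis were tested for 21 of 22 listed, and 0 were called. For either dose 15 of 21 had log2 fold changes above 0, with medians of 0.02 and 0.04. TERT, the catalytic subunit of telomerase, was at 1.51 ± 0.111 CPM in control, 2.35 ± 0.697 CPM with the lower dose and 2.14 ± 0.215 CPM with the higher dose (SD, n = 3), a log2 fold change of 0.64 ± 0.25 (SE; adjusted p = 0.780) for the lower dose. RUVBL2, an ATPase of chromatin and snoRNP assembly complexes, had 0.11 ± 0.05 for the lower dose (adjusted p = 0.791).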

How the data were processed

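The authors deposited read counts per gene symbol for 9 libraries, and FPKM for the same genes. The submitters' processing notes name Trimmomatic, HTSeq and DESeq (no versions) and the build hg38; for aligner, annotation and strand, nothing was given in the sources used here. FPKM as deposited are these counts rescaled: the implied length was whole (relative tolerance 1e-06) for 11053 of 11053 genes reaching 50 counts in all libraries. FPKM served for levels and for limma.

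Counts were filtered (filterByExpr, minimum count 10, minimum total 15; 3318 genes removed), scaled by TMM and fitted in 1 model of 9 libraries with the edgeR 4.0.16 quasi-likelihood test (R 4.3.3), adjusted over 12665 genes and two-sided. Standard errors are the log2 fold change over the square root of F. The common biological coefficient of variation was 5.39%, and totals are in the report. The code was tested on simulated data. Alternatives were DESeq2 1.42.0, limma 3.58.1, other filters and scalings, pairwise models, a replicate block and leaving out each library.

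The 34 genes and the lists were chosen with earlier results of these data known. Values of every library are given for MYC, MAX, the 3 genes of smallest p per direction against control, and the 5 highest and 3 lowest by FPKM; NOP16 was added after its values were seen, as were the comparison of intervals with 1.5-fold and 1.2-fold bounds. From each list of other genes of the pathway or of MYC up to 2 genes of smallest p in the comparisons with control are named. Shared transcript means a match of at least 97% identity over 100 bases (BLAST+ 2.17.0) or an exon overlap in GENCODE release 29. Promoters are from RefSeq (GRCh38.p14) and were used for sequence only; for MYC, BOP1, NOLC1, NOP58, RRP12, RRS1 and TCOF1 none was matched.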

Additional observations from a re-analysis of the deposited data

How the results depend on the processing

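Under the 8 alternatives other than leaving out a library, 0 of the 34 genes were called in any comparison, and 816 of 816 values of single genes moved by less than the spread; the smallest adjusted p of a member was 0.577, 0.999 and 0.693 (lower dose, higher dose, between doses). The count of called genes of the whole table was 0 in edgeR and became 2 for the lower dose and 5 over the 3 groups with the replicate block, and 1 over the 3 groups with DESeq2. At an unadjusted p under 0.05 DESeq2 gave 573, 173, 487 and 381 genes in the 3 comparisons and over the 3 groups. Deviations of same-numbered libraries from their group means correlated at -0.0117 to 0.161. The block called none of the 34 genes, and neither did the model without it. In the 3 comparisons and over the 3 groups, edgeR with the block gave 975, 354, 897 and 764 genes at an unadjusted p under 0.05. Without the block it gave 776, 299, 720 and 567. The labels do not say whether a replicate number marks a shared culture or day, and these values cannot settle it.

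Leaving out 1 library gave 0 to 1 called genes for the lower dose (1 without control replicate 2), 0 to 2 between doses (2 without lower dose replicate 1) and 0 to 2 over the 3 groups, and 0 of the 34 each time. The median log2 fold change of the 34 ran from -0.0203 to 0.0414 for the higher dose, the last without control replicate 1, from -0.0108 to 0.0419 for the lower dose and from -0.0174 to 0.0102 between doses. The sign changed in at least 1 such fit for 21, 25 and 15 of the 34 genes. NOP16 between doses went from 0.14 to -0.0274 without higher dose replicate 1 and to 0.32 without lower dose replicate 1. The cause was not tested. Intervals stayed within 1.5-fold for 33 or 34 genes and within 1.2-fold for 22 to 29. With 3 libraries a group, changes inside these intervals could not be resolved, and they were widest for NOP16, GAR1 and POLR1C, at means of 13.1, 18.2 and 16.5 CPM.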
